A study of Mus musculus with 6 samples.

Results

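Small nucleolar RNAs (snoRNAs), small Cajal body RNAs (scaRNAs), spliceosomal small nuclear RNAs (snRNAs) and the RNAs of RNase P, RNase MRP and telomerase are short nuclear transcripts that end without a poly(A) tail. Their rows were chosen by symbol alone: symbols that begin with Snora, Snord, Scarna or Rnu, and the genes Rpph1, Rmrp and Terc. A summed count of 10 or more over all 6 libraries was required. This rule took 102 of the 116 rows with such a symbol, out of 27634 rows in all. The 102 rows comprised 57 box C/D snoRNAs, 31 box H/ACA snoRNAs, 8 scaRNAs, the spliceosomal snRNAs Rnu1b2 (U1), Rnu11 (U11) and Rnu12 (U12), and Rpph1, Rmrp and Terc.

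The libraries came from C57BL/6 mice bearing ID8-Defb29/Vegf-a tumours for 32 to 38 days, a mouse ovarian tumour line that carries Defb29 and Vegf-a. All mice, controls included, received 100 µg of siRNA in nanocomplexes with rhodamine-conjugated polyethylenimine, directed at Satb1 (a chromatin organiser) or non-targeting (NT). The cells are called cancer-associated dendritic cells in the labels, with no sort described. The high experiment, labelled as having strong Satb1 downregulation, had 2 libraries with Satb1 siRNA and 2 with NT siRNA. The low experiment, labelled as having weak downregulation, had 1 library with Satb1 siRNA and 1 with NT siRNA.

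Satb1 had 184 and 200 counts in the high Satb1 siRNA libraries and 1233 and 1193 in the high NT libraries, a log2 fold change of -2.25 (SE 0.0719, edgeR quasi-likelihood test, adjusted p = 1.74e-39). It had 165 counts (6.72 CPM, counts scaled to a common library total) in the low Satb1 siRNA library and 170 counts (6.29 CPM) in the low NT library, a log2 difference of 0.095 by library size and -0.26 after TMM scaling, so that its direction turned with the scaling. Every difference within the low experiment below is one between libraries with these Satb1 levels. Library totals ran from 24553454 to 71272720 counts. The repeats of a high group differed by little more than counting noise over all genes (chi-square per gene 1.37 for Satb1 siRNA and 1.202 for NT). Over the small RNA rows it was 2.80 per row for Satb1 siRNA and 0.860 for NT. On the values over all genes, the repeats of a high group were read as 1 sample. The main edgeR fit nevertheless took the 2 libraries of each high group as repeats. Every SE and p-value below therefore compares the sequenced libraries, not independent animals. For some abundant rows, Rmrp and Snord15b among them, the fitted SE was smaller than the counting error of the row. Of the dendritic cell markers Itgax, Flt3, Zbtb46, H2-Ab1, Cd209a and Batf3, none was at 0 in every library. Their summed level was 125 to 128 CPM in the high Satb1 siRNA libraries and 224 CPM in both high NT libraries, and 1809 CPM in the low Satb1 siRNA library against 1351 CPM in the low NT library. H2-Ab1 made up most of the sum in the high experiment, at 111 and 109 CPM with Satb1 siRNA and 193 CPM in both NT libraries. Of the 6 dendritic cell markers, 3 were called lower there and 3 higher (Flt3, Zbtb46 and Cd209a). The summed level of 6 macrophage markers was higher than the dendritic cell sum in each library of both experiments. It was 1998 to 2003 CPM with Satb1 siRNA and 1597 to 1599 CPM with NT siRNA in the high experiment. In the low experiment it was 2236 CPM with Satb1 siRNA and 2773 CPM with NT siRNA. Of the 6 macrophage markers, 4 were called higher and 1, Cd68, lower in the high experiment. Cd163 had 709 and 713 CPM there with Satb1 siRNA against 348 and 347 CPM with NT siRNA. B cell markers summed to 11.3 to 11.6 CPM with Satb1 siRNA and 6.0 CPM with NT siRNA in the high experiment, T cell markers to 10.7 to 10.8 CPM and 7.2 to 7.5 CPM, and neutrophil markers to 83.1 to 83.4 CPM and 69.3 to 70.0 CPM. Of the 4 neutrophil markers tested, 3 were called higher and 1, Mmp8, lower (log2 fold change -0.55). Mesothelial and tumour markers summed to 792 to 798.5 CPM with Satb1 siRNA and 702.5 to 704 CPM with NT siRNA in the high experiment. The part of these marker differences in the small RNA results was not tested.

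U1 is the snRNA that recognises the start of an intron, and U11 and U12 serve the minor class of introns. RNase P trims the front end of precursor transfer RNAs, and RNase MRP takes part in processing precursor ribosomal RNA. Box C/D snoRNAs guide the methylation of ribose in ribosomal RNA, box H/ACA snoRNAs guide its pseudouridylation, and scaRNAs do the same for snRNAs. Most vertebrate snoRNAs are cut from introns of host genes, many of which encode ribosomal proteins. These RNAs have no poly(A) tail, so a library that selects poly(A) RNA holds few of them, whereas a library of ribosome-depleted total RNA can hold many.

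The sequences below are shown for the snRNAs and the RNase P and MRP RNAs, whose counts lay far apart in the high and low experiments, for a pair of guides from 1 host gene, Rps3, whose rows parted, and for Snora65, an H/ACA guide called higher with Satb1 siRNA. All are GENCODE vM21 transcripts on GRCm38, read on the RNA strand. Rnu1b2 lies on chromosome 3, Rnu11 and Rmrp on chromosome 4, Rnu12 on chromosome 15, Rpph1 on chromosome 14, Snord15a and Snord15b on chromosome 7, and Snora65 on chromosome 2. In the snRNAs, capitals mark the letters ATTTNTG, which resemble the site that binds Sm proteins and have no match in Rnu11, and in Rnu1b2 also ACTTACCT, the stretch that pairs with the intron start.
Rnu1b2: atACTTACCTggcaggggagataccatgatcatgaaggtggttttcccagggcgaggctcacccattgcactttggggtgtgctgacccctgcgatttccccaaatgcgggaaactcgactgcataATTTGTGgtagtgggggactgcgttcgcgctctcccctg
Rnu12: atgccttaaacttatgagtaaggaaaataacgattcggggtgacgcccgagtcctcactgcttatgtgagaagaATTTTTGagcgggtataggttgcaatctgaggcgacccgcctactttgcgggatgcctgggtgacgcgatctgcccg
Rnu11: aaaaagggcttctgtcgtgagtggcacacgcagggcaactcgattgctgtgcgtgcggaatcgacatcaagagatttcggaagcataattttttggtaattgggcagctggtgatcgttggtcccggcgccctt
Of Rpph1 the first 280 of 319 nucleotides are given. In Rpph1 and Rmrp, capitals mark their longest shared run, CAGCGGGGC, of 9 nucleotides.
Rpph1: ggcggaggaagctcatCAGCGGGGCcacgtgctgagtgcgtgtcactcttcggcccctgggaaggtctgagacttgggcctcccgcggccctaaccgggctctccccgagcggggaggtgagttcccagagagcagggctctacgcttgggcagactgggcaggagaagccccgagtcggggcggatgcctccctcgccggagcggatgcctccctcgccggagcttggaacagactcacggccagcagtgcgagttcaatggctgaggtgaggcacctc
Rmrp: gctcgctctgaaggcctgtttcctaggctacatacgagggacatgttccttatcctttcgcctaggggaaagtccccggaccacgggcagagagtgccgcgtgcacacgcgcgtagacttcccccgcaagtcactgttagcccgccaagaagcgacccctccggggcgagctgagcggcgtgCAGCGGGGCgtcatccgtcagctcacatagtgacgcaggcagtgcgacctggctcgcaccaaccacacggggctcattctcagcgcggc
In the box C/D guides, capitals mark TGATGA, the C box, and the last CTGA, the D box, and in the H/ACA guide Snora65 the closing ACA.
Snord15a: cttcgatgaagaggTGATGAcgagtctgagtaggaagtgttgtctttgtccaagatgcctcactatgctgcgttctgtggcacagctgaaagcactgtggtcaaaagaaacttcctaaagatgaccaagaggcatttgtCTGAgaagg
Snord15b: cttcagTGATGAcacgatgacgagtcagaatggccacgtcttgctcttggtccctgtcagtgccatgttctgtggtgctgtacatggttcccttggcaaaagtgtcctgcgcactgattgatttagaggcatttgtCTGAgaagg
Snora65: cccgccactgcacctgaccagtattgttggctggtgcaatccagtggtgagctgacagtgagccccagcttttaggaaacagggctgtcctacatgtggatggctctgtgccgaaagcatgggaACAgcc
On the RNA strand, TGATGA followed by CTGA stood in 38 of the 56 box C/D members with a transcript in GENCODE, in 0 of 31 box H/ACA members and in 24% of all 1507 GENCODE snoRNA transcripts. An ACA with 3 bases after it stood in 25 of the 31 box H/ACA members, in 0 of the 56 box C/D members and in 18.3% of all snoRNA transcripts. The letters ATTTNTG stood in 2 of the 3 snRNA members and in 20.5% of 1383 GENCODE snRNA transcripts. ACTTACCT within the first 12 bases stood in 4.34% of them.

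Together the 102 rows held a far larger share of the counts in the high experiment than in the low one. They made up 2.21% and 2.22% of the counts in the high Satb1 siRNA libraries and 2.14% and 2.13% in the high NT libraries. In the low experiment they made up 0.220% with Satb1 siRNA and 0.255% with NT siRNA. Without Snord15b, Snord34, Snord100 and Snord96a, described below, the low shares were 0.0154% with Satb1 siRNA and 0.0105% with NT siRNA, so that the order of the groups turned round, and the high means were 2.01% and 1.93%. In such bulk samples, fewer cells of a type and less RNA per cell cannot be told apart. A single row, Rnu1b2, held most of the high share: it had 863047 and 825068 counts with Satb1 siRNA and 1030517 and 1077743 with NT siRNA. Without Rnu1b2 the mean share was 0.537% in the high Satb1 siRNA libraries and 0.616% in the high NT libraries, so that the order of the groups turned round. By RNA class, the spliceosomal rows held 1.70% and 1.71% of the counts with Satb1 siRNA against 1.55% and 1.55% with NT siRNA. The RNase P, MRP and telomerase rows held 0.200% and 0.191% against 0.271% and 0.271%. Box C/D rows held 0.260% and 0.261% against 0.258% and 0.258%, and box H/ACA rows held 0.0451% and 0.0460% against 0.0455% and 0.0461%. Most of the box C/D share came from Snord15b, Snord34, Snord100 and Snord96a, at 0.204% and 0.204% against 0.201% and 0.201%. The box C/D rows called RNA-sized below held 0.0346% and 0.0351% against 0.0358% and 0.0359%, in the other order. The scaRNA rows held 0.00643% and 0.00645% against 0.00707% and 0.00712%.

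**Figure D1:**
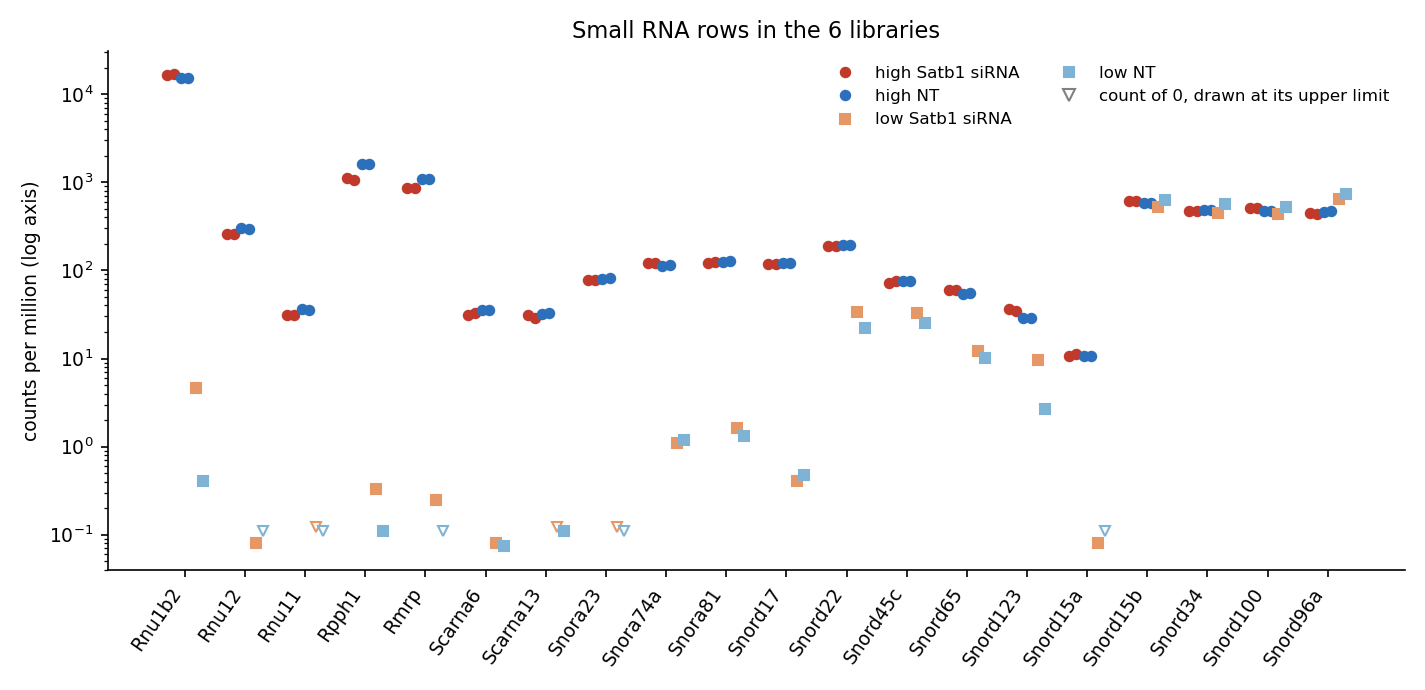
Level in CPM (log axis) of 20 small RNA rows in the 6 libraries, with circles for the high and squares for the low experiment. Open triangles mark a count of 0 at the upper limit it allows (3 counts). In the low libraries the snRNA, RNase P and MRP rows lie at 0 to 4.68 CPM, while Snord15b, Snord34, Snord100 and Snord96a lie at 433 to 728 CPM there and at 442 to 612 CPM in the high libraries.

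The NT libraries of the low and the high experiment lay far apart in these RNAs. Rnu1b2, the U1 row, had 0.407 CPM in low NT, from 11 counts, and 15205 and 15121 CPM in high NT. That is 37300-fold lower in low NT (95% counting interval 20800 to 74600). Rpph1, the RNA of RNase P, had 3 counts in the low NT library and 109346 and 115419 in the high NT libraries. Relative to the library totals that is 14600-fold lower in low NT (95% counting interval 4980 to 70600). Rmrp, the RNA of RNase MRP, had 0 counts in the low NT library and 74425 and 77966 in the high NT libraries, at least 9870-fold lower when 3 counts are set for the 0. In each of these rows the low NT library lay far below both high NT libraries, with no overlap.

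The minor spliceosomal snRNAs followed the same course. Rnu12 had 0 counts in low NT and 20328 and 21200 in high NT, and Rnu11 had 0 counts in low NT and 2472 and 2525 in high NT. With 3 counts set for the 0, these are at least 2690-fold and 324-fold lower. Among snoRNAs, Snord17, a large box C/D guide from an intron of Snx5, had 13 counts in low NT and 8241 and 8576 in high NT. Snora81, an H/ACA guide within Eif4a2, had 36 counts in low NT and 8433 and 9001 in high NT. Snora74a had 32 counts in low NT and 7694 and 8164 in high NT. Among scaRNAs, Scarna6 had 2 counts in low NT and 2415 and 2506 in high NT, and Scarna13 had 3 counts in low NT and 2183 and 2323 in high NT. Of the 102 rows, 40 had a count of 0 in the low NT library, 37 in the low Satb1 siRNA library and 26 in both. A count of 0 allows up to 0.111 CPM in the low NT library and 0.122 CPM in the low Satb1 siRNA library, by counting error alone.

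Across the 33 members whose mean log2 CPM reached 0 in these control libraries, 24 were at least 2-fold lower in low NT and 1, Snord96a, was at least 2-fold higher (TMM-scaled CPM, prior count 2). Among all 13342 genes at that level, 20.3% were at least 2-fold lower and 27.0% were at least 2-fold higher. The level filter averaged low and high NT. Rmrp, Rnu11, Rnu12 and Snora23, each with 0 counts in low NT, passed it through the high libraries alone. These counts therefore describe the rows and support nothing. The median log2 ratio of the 33 members was -2.34, also with the 4 rows at 0 set to their bound, beside 0.14 for all genes. With library size alone the median of all genes moved to -0.48 and that of the members to -2.96, with 27 at least 2-fold lower and 0 at least 2-fold higher. With 1 low NT library no test was run. The labels name the same total RNA library kit for all 6 samples, and the experiment and anything else that differed in its preparation cannot be told apart. Markers of other cells moved between the same controls: mesothelial and tumour markers summed to 118 CPM in low NT and 702.5 and 704 CPM in high NT, and neutrophil markers to 189.7 CPM in low NT and 70.0 and 69.3 CPM in high NT. S100a8 and S100a9 made up most of the neutrophil sum in low NT, at 62.1 and 91.9 CPM. Cxcr2 went the other way, with 12.3 CPM in low NT and 41.3 and 40.8 CPM in high NT. The part of these marker differences in the small RNA ratios was not tested. Replication-dependent histone mRNAs, which also lack a poly(A) tail, held 0.0120% of the counts in low NT, against 0.153% and 0.154% in high NT.

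The rows Snord15b, Snord34, Snord100 and Snord96a lay between 433 and 728 CPM in all 6 libraries, and these rows were longer than the snoRNA they are named for. For each row a length was computed from the deposited count, the FPKM (a value per kilobase of gene and per library size) and the library total. Rpph1 gave 284 against an RNA of 319 nucleotides and Rmrp gave 247 against 271. The row Snord15b gave 927 nucleotides against 145 for the RNA, Snord34 gave 733 against 70, Snord100 gave 500.5 against 74 and Snord96a gave 1264 against 81. These guides lie within Rps3, Rpl13a, Rps12 and Rack1, genes of the ribosome. No row was found for these hosts under their own symbols or synonyms, so guide and host could not be set side by side. Whether the counts of these 4 rows are reads of the host mRNA was not tested. Of the 102 rows, 55 gave at most 2 times their RNA length (called RNA-sized here), 23 gave more, and 24 had too few counts or no FPKM. Of the 55, 48 reached the 20 counts needed for a length in 4 libraries or fewer, so that most entered this class through the deeper high libraries. Each length is a median over libraries, which could differ. Snord15b had an FPKM of 331 at 635 CPM in low NT, and of 668 and 669 at 587 and 584 CPM in high NT. The RNA-sized row Snora74a had an FPKM of 1.18 at 1.18 CPM in low NT, and of 644 and 651 at 113.5 and 114.5 CPM in high NT. Rnu12, at 2.02 times its RNA length, lay just over the limit of 2 times, and Snora52, at 1.87 times, just under it.

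Rows from 1 host gene parted along this line in Rps3 and Rpl13a, and less clearly in Rack1. In Rps3, the RNA-sized row Snord15a had 0 counts in low NT and 725 and 762 (10.7 and 10.7 CPM) in high NT, whereas the longer row Snord15b had 635 CPM in low NT and 587 and 584 CPM in high NT. In Rpl13a, Snord33 had 7 counts (0.259 CPM) in low NT and 179 and 182 (2.64 and 2.55 CPM) in high NT, whereas Snord34 had 562 CPM in low NT and 484 and 487 CPM in high NT. In Rack1, Snord95 had 3 counts (0.111 CPM) in low NT and 23 and 25 (0.339 and 0.351 CPM) in high NT. That is 3.11-fold lower in low NT, with a 95% counting interval that reaches down to 1 (1 to 15.6). Snord96a had 728 CPM in low NT and 466 and 467 CPM in high NT. Snord100 had 523 CPM in low NT and 474 and 475 CPM in high NT. Row length did not sort every member, since Rnu1b2 (1163 nucleotides against 165), Snora23 (1424 against 184), Rnu12 (305 against 151), Snora36b and Snora15 had longer rows and 0 to 11 counts in low NT. In the other direction, the RNA-sized rows Snora31 and Snord12 had 0.814 and 0.333 CPM in low NT, against 0.772 to 0.826 and 0.369 to 0.379 CPM in high NT. Snora64 had 0.888 CPM in low NT and 1.48 and 1.71 CPM in high NT. The U1 row may also share reads with other U1 genes, as 1 other GENCODE transcript has the identical sequence.

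**Figure D2:**
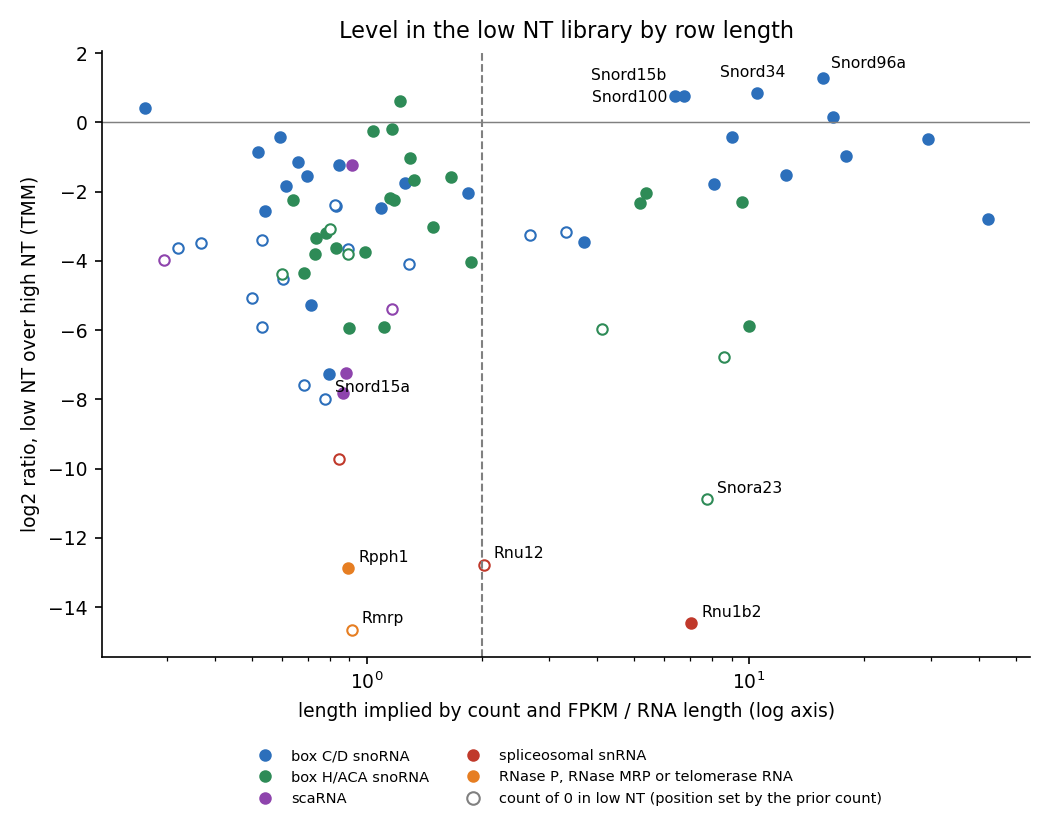
Log2 ratio of low NT over high NT (TMM) of each row against the length implied by its count and FPKM, as a multiple of the RNA length (log axis), coloured by RNA class. The dashed line stands at 2, and open points had a count of 0 in low NT, so that their height depends on the prior count. The rows Snord15b, Snord34, Snord100 and Snord96a lie above 0 at the upper right, and Rpph1, Rmrp, Rnu12 and Rnu1b2 lie lowest.

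Host genes were set beside their guides in the same controls. GENCODE placed 91 of the 102 members inside another gene, and 62 of these had a host row. Over these 62 members (54 hosts), the median log2 ratio of low NT over high NT was -2.38 for the guides and 0.12 for the hosts, and 57 guides lay below their host. With the 28 guides at 0 in low NT set to their bound, the median of the guides was -1.42 and 48 lay below their host. The rule on summed counts took in the high libraries compared here, so these counts describe the rows and support nothing. The 5 guides that did not lie below their host were Snord69 (3.38 against -1.48 for Gnl3), Snord53 (1.39 against -0.28 for Wdr43), Scarna3a, Snora78 and Snord11, with 0 to 17 counts per control library. Snx5, the host of Snord17, had 402 CPM in low NT and 603 and 612 CPM in high NT. Eif4a2, the host of Snora81, had 173 CPM in low NT and 421 and 424 CPM in high NT, and Nop56, a snoRNP protein and the host of Snord57, had 40.3 CPM in low NT and 76.1 and 75.5 CPM in high NT.

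**Figure D3:**
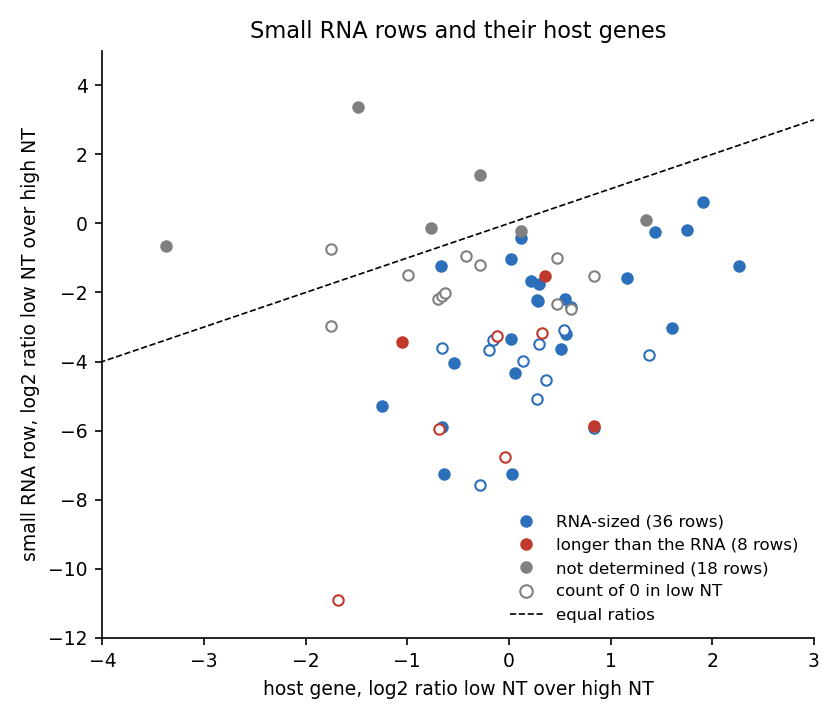
Log2 ratio of low NT over high NT (TMM) of 62 small RNA rows against that of their host gene. The dashed line marks equal ratios and open points had a count of 0 in low NT. Blue marks RNA-sized rows, red longer rows and grey rows of undetermined length, and 57 of the 62 had a ratio below that of their host. Snord12, among the 57, lies beyond the right edge and is not drawn (host ratio 3.26).

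Within the high experiment, the RNAs of RNase P and RNase MRP and the minor spliceosomal snRNAs were lower with Satb1 siRNA, the U1 row was slightly higher, and the abundant snoRNA rows differed little. Of 85 members that passed the filter on low counts, 12 were higher (14.1%) and 39 lower (45.9%) at an edgeR adjusted p under 0.05, and 34 were not called. Among all 20242 genes tested, 32.8% were called higher and 33.2% were called lower. The median log2 fold change was -0.10 for the members and 0.01 for all genes. Among the 46 members with a mean of 100 or more counts, 5 were higher and 27 lower, with a median of -0.09. The shares among all genes at that depth were not computed, so these counts have no background beside them. The 17 members that failed the filter, Terc among them, were not tested: Terc had 7 and 2 counts with Satb1 siRNA and 8 and 16 with NT siRNA. By CPM, 20 of the 85 were higher and 41 lower with no overlap of the groups, beside 46.9% and 35.4% of all genes. These fold changes are TMM-scaled and lie slightly below the ratio of the unscaled CPM values, since library size alone moved the median of all genes to 0.07 and that of the members to -0.05. With DESeq2, 3 of the 85 members were higher and 21 lower, beside 4175 and 4896 of all 20242 genes. Without the first NT library 6 were higher, and with the repeats summed and the experiment as a term 0 were called, where 1 member had an unadjusted p under 0.05 and over all genes 0 were higher and 6 lower.

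Rpph1 had 1130 and 1058 CPM with Satb1 siRNA and 1613 and 1619 CPM with NT siRNA. Its log2 fold change was -0.62 (SE 0.0239, edgeR adjusted p = 0.00196). This call ended without the first NT library (adjusted p = 0.0618) and without the second (adjusted p = 0.0671). Rmrp had 868 and 855 CPM with Satb1 siRNA and 1098 and 1094 CPM with NT siRNA, a log2 fold change of -0.40 (SE 0.00352, edgeR adjusted p = 4.39e-63). The SE of Rmrp is below the counting error of its row, so this p-value overstates the precision. Both RNAs were lower in each Satb1 siRNA library than in each NT library.

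Rnu12 had 257 and 260 CPM with Satb1 siRNA and 300 and 297 CPM with NT siRNA (log2 fold change -0.26, SE 0.0123, edgeR adjusted p = 9.53e-31). The authors' FPKM of the same row ran the other way, at 949 and 967 with Satb1 siRNA and 871 and 874 with NT siRNA. Rnu11 had 31.5 and 31.3 CPM with Satb1 siRNA and 36.5 and 35.4 CPM with NT siRNA (log2 fold change -0.25, SE 0.0336, edgeR adjusted p = 9.36e-10), and its FPKM ran the same way. The U1 row Rnu1b2 had 16690 and 16831 CPM with Satb1 siRNA and 15205 and 15121 CPM with NT siRNA. Its log2 fold change was 0.09 (SE 0.0061, edgeR adjusted p = 0.00598), and leaving out any 1 of the 4 libraries ended the call (adjusted p = 0.069 to 0.117). The groups did not overlap in any of these snRNA rows.

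**Figure D4:**
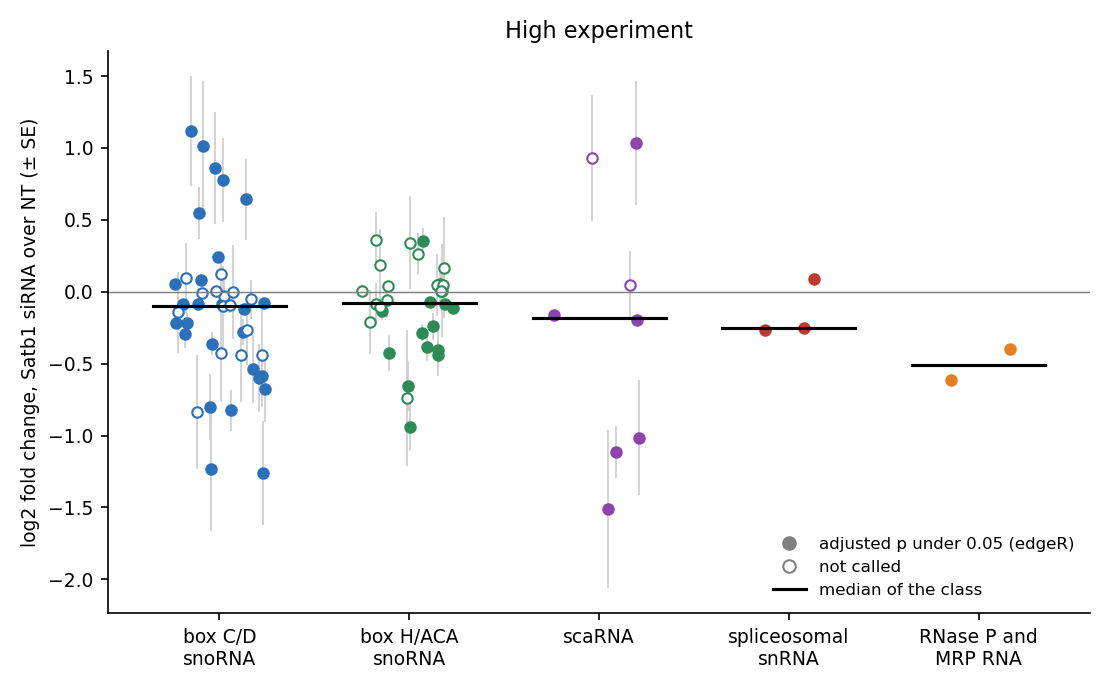
Log2 fold change of Satb1 siRNA over NT with its SE for the 85 members tested in the high experiment, by RNA class. Filled points passed an edgeR adjusted p of 0.05, and bars mark the class medians (-0.10 for box C/D, -0.08 for box H/ACA, -0.18 for scaRNAs, -0.25 for snRNAs and -0.51 for RNase P and MRP RNA). The 2 RNase P and MRP points lie below 0, and the snoRNA classes spread to both sides.

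The snoRNA classes were spread around small shifts. Of 42 box C/D snoRNAs tested, 9 were higher and 18 lower, and of 30 box H/ACA snoRNAs 1 was higher and 12 lower. The shares lower, 42.9% and 40%, stood beside 33.2% of all genes, and the shares higher, 21.4% and 3.33%, stood beside 32.8%. The most abundant RNA-sized snoRNA rows moved little. Snord22, a box C/D snoRNA within the noncoding host Snhg1, had 187 and 192 CPM with Satb1 siRNA and 192 and 194 CPM with NT siRNA (log2 fold change -0.08, SE 0.0169). Snord17 had 120 and 119 CPM with Satb1 siRNA and 122 and 120 CPM with NT siRNA (log2 fold change -0.08, SE 0.0213). Snora81 had 120 and 125 CPM with Satb1 siRNA and 124 and 126 CPM with NT siRNA (log2 fold change -0.09, SE 0.0215), its groups overlapped, and its call ended without the first Satb1 siRNA library (edgeR adjusted p = 0.0963). Snord22, Snord17 and Snora81 passed the edgeR threshold (adjusted p = 1.71e-05, 0.00128 and 0.000382). Scaled by library size alone, none of the 3 did (adjusted p = 0.12, 0.361 and 0.185). Snora74a had 122 and 121 CPM with Satb1 siRNA and 114 and 115 CPM with NT siRNA and was not called (log2 fold change 0.04, SE 0.0215, edgeR adjusted p = 0.0869), whereas library size alone called it higher (adjusted p = 7.28e-05).

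Larger differences came from rarer guides. Snora62, an H/ACA guide from an intron of Rpsa, had 51 and 53 counts with Satb1 siRNA and 142 and 124 with NT siRNA, a log2 fold change of -0.94 (SE 0.165, edgeR adjusted p = 9.06e-07). Scarna17 had 36 and 48 counts with Satb1 siRNA and 110 and 132 with NT siRNA, a log2 fold change of -1.11 (SE 0.18, edgeR adjusted p = 1.47e-07). In these rows the groups were well apart.

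Snora65, which lies within Rpl12, was the only H/ACA guide called higher, with 5.39 and 5.14 CPM in the Satb1 siRNA libraries and 3.97 CPM in both NT libraries (log2 fold change 0.35, SE 0.0924, edgeR adjusted p = 0.000601). Snord8, a box C/D guide from Chd8, had 76 and 68 counts with Satb1 siRNA and 62 and 69 with NT siRNA, from the larger NT libraries (log2 fold change 0.55, SE 0.179, edgeR adjusted p = 0.00582). The FPKM of Snord8 overlapped between the groups, at 18.76 and 16.6 with Satb1 siRNA and 16.81 and 17.95 with NT siRNA. Snord123 had 36.1 and 34.8 CPM with Satb1 siRNA and 29.1 and 28.7 CPM with NT siRNA (log2 fold change 0.24, SE 0.0343, edgeR adjusted p = 6.13e-09). Its row was 42.1 times as long as the guide.

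In all, 8 members were called with at least a 2-fold change, and 0 of them had a mean of 100 or more counts. The share of all genes called at that change was not computed, so this count describes the rows only. The rises were Snord1c, Scarna9 and Snord49b (log2 fold change 1.12, 1.04 and 1.01), each with 5 to 28 counts per library. The falls were Scarna3b, Snord43, Snord70, Scarna17 and Scarna8 (-1.51, -1.26, -1.23, -1.11 and -1.01). The other rises among the 6 largest of called members were Snord42a, Snord95 and Snord85 (0.86, 0.78 and 0.64). The edgeR call ended without the first Satb1 siRNA library for Scarna3b, Scarna8, Scarna9, Snord43, Snord49b and Snord85, and without the second for Snord1c, Snord42a, Snord49b, Snord70 and Snord95. It ended without the first NT library for Scarna9, Snord42a, Snord85 and Snord95, and without the second for Scarna3b, Scarna8, Scarna9, Snord42a, Snord49b and Snord70. Over these omissions the lost calls had adjusted p of 0.058 to 0.515, and DESeq2 called none of these 10 members (adjusted p = 0.0867 to 0.307). Among the remaining scaRNAs, Scarna6 and Scarna13 were lower (log2 fold change -0.20 and -0.16, SE 0.0339 and 0.0351), while Scarna3a and Scarna10 were not called (0.93 and 0.05, SE 0.438 and 0.24).

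Most longer rows also moved little. Snord15b had 612 and 609 CPM with Satb1 siRNA and 587 and 584 CPM with NT siRNA and was not called (log2 fold change 0.01, SE 0.0053). Snord100 was called higher by 0.06 and Snord34 and Snord96a lower by 0.09 and 0.12 on the log2 scale. Snord65 and Snord45c, guides in the hosts 2410006H16Rik and Rabggtb, were called at 0.08 and -0.09. Snora23, an H/ACA guide from Ipo7, had 77.4 and 78.0 CPM with Satb1 siRNA and 79.7 and 81.8 CPM with NT siRNA (log2 fold change -0.11). Leaving the longer and the undetermined rows out, 4 of the 55 RNA-sized rows were higher and 25 lower, with a median of -0.16.

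Guides and hosts were compared within the same fit. Of 50 member and host pairs tested, both were called in 21, in the same direction in 14 and in opposite directions in 7. Across these pairs Pearson's r of the log2 fold changes was 0.06 and Spearman's rho 0.04, a description over pairs that share libraries and hosts. Rpl3, a ribosomal protein gene, was higher (log2 fold change 0.20, edgeR adjusted p = 4.79e-48), while its guides Snord43 and Snord83b were lower (-1.26 and -0.67). Rpl12 and Snora65 were both higher (0.05 and 0.35), and Nop56 and Snord57 were both lower (-0.31 and -0.22). Of the 47 called members with an FPKM ratio, 9 had the FPKM ratio in the other direction from the counts, Rnu12, Snora26, Snord88a and Snora70 among them.

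Within the low experiment, few members had enough counts to compare. With 1 library per siRNA, the ratios are given with counting intervals and no test. Of 21 members whose mean log2 CPM reached 0, 2 were at least 2-fold higher with Satb1 siRNA and 0 were at least 2-fold lower. Among all 12977 genes at that level, 8.13% were at least 2-fold higher and 3.36% at least 2-fold lower. The median log2 ratio was -0.12 for the members and -0.07 for all genes after TMM scaling, and 0.24 and 0.29 with library size alone, so that the sign of both medians depends on the scaling. Rnu1b2 had 115 counts with Satb1 siRNA and 11 with NT siRNA, a TMM-scaled ratio of 9.0 (95% counting interval 4.84 to 18.5). The longer row Snord123 had 236 counts with Satb1 siRNA and 72 with NT siRNA, a ratio of 2.82 (2.16 to 3.73). Both rows stayed above 2-fold under each of the scalings tried.

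Other rows of the low experiment differed by less. Snord88a had 462 counts with Satb1 siRNA and 278 with NT siRNA (ratio 1.43, 1.23 to 1.67), and Snord1a had 164 and 102 (ratio 1.38, 1.07 to 1.79). Snord22 had 823 counts with Satb1 siRNA and 604 with NT siRNA (ratio 1.17, 1.05 to 1.30). The rows Snord34, Snord15b, Snord100 and Snord96a gave ratios of 0.620, 0.642, 0.647 and 0.690, and Snora26 gave 0.645 (0.388 to 1.06). Summed over the 55 RNA-sized rows, Rnu1b2 and Rnu12, there were 1233 counts with Satb1 siRNA and 912 with NT siRNA, a ratio of 1.16 after TMM scaling (1.07 to 1.27) and 1.49 by library size (1.37 to 1.62). Without Rnu1b2 and Rnu12 the TMM-scaled ratio was 1.07 (0.975 to 1.16). Snord22 alone gave 823 counts with Satb1 siRNA and 604 with NT siRNA to both sums, so they largely describe that row. In the low libraries Snord22 had an FPKM of 39.36 and 28.96 at 33.52 and 22.35 CPM. High NT gave it an FPKM of 1426 and 1436 at 192 and 194 CPM. Its RNA-sized class thus reflects the high libraries, not the low ones. Malat1, a long nuclear RNA whose mature end is not a poly(A) tail, had 36528 counts with Satb1 siRNA and 22388 with NT siRNA, a TMM-scaled ratio of 1.40 (1.38 to 1.43). Mesothelial and tumour markers differed between the same libraries, with a sum of 545 CPM for Upk3b, Wt1, Msln, Krt8, Krt18 and Krt19 with Satb1 siRNA and 118 CPM with NT siRNA, and none of the 6 was at 0. The part of this difference in the small RNA ratios was not tested.

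**Figure D5:**
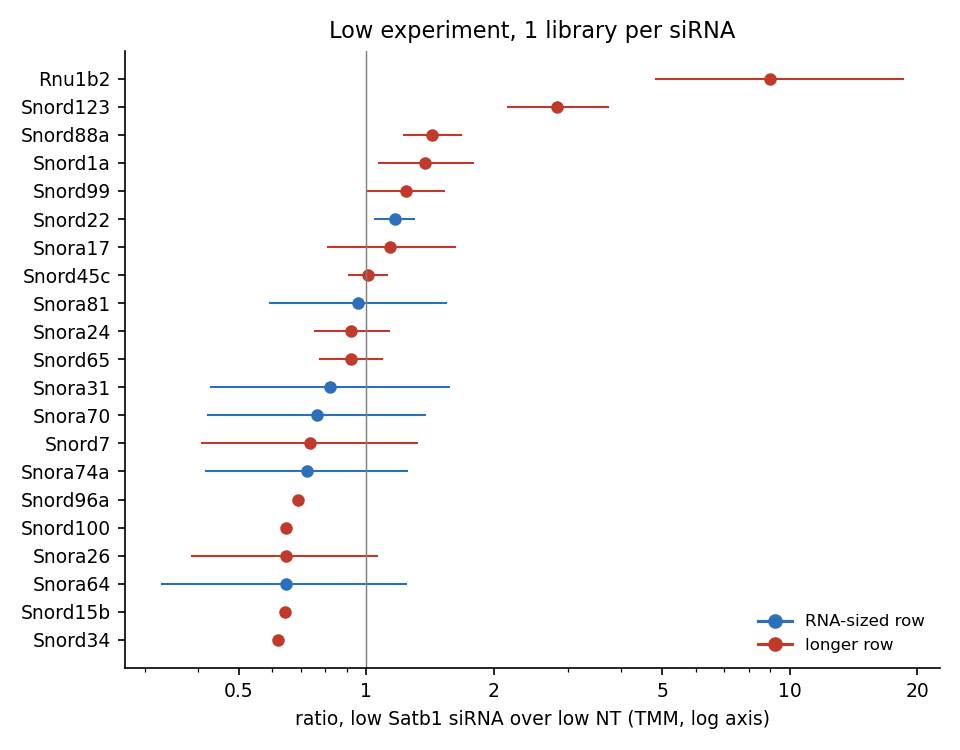
Ratio of low Satb1 siRNA over low NT (TMM-scaled, log axis) with its 95% counting interval for the 21 members whose mean log2 CPM reached 0, 1 library per siRNA. Blue marks RNA-sized rows and red marks longer rows. Rnu1b2 (9.0) and Snord123 (2.82) stand to the right, and Snord34, Snord15b, Snord100 and Snord96a (0.620 to 0.690) stand to the left with intervals narrower than the points.

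Whether the effect of the siRNA was unequal in the low and the high experiment was tested as an edgeR interaction term. Of 89 members tested, 8 had a higher effect in the low than in the high experiment and 5 a lower one, against 21.8% and 17.9% of all 20971 genes. The single low libraries were assumed to vary like the high repeats, so these p-values rest on that assumption. The rows Snord15b, Snord100, Snord34 and Snord96a had the lower effect (differences of -0.64, -0.68, -0.60 and -0.41 on the log2 scale), and Snord123, Snord1a, Snord88a and Snord22 the higher one (1.26, 0.75, 0.73 and 0.32), all with edgeR adjusted p of 0.00402 or less. With DESeq2 size factors 4 members had a higher effect, and the call of Snord22 ended (difference 0.22, adjusted p = 0.0505). The other called members, named after their values were seen, were Snord99 (0.41, adjusted p = 0.0234) and 4 RNA-sized rows with 0 to 7 counts per low library. Of these, Snord33 had the lower effect (-6.66, SE 2.22, adjusted p = 0.0147), and Snord2, Snord57 and Snora47 had the higher one (6.66, 6.46 and 6.37, SE 2.60, 2.55 and 2.65, adjusted p = 0.0322, 0.0472 and 0.0479). Each of the 4 had a count of 0 in 1 low library, so that the size of its difference depends on the fit. Rnu1b2, Rpph1 and Rmrp were not called (differences of 3.08, 1.81 and 7.22, SE 34.8, 43.0 and 7.78), and at these SEs the interaction could not be resolved for them.

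The proteins that bind and build these RNAs were mostly lower by small amounts in the high experiment, beside the 33.2% of all genes called lower. All 4 core proteins of box C/D particles were lower, among them Nop56 (log2 fold change -0.31) and the methyltransferase Fbl (-0.28). Of the 4 H/ACA core proteins, Nhp2 was lower (-0.31), Gar1 was higher (0.23), and the pseudouridine synthase Dkc1 and Nop10 were not called (-0.05 and 0.06). Of 14 snoRNP assembly factors, 8 were lower and 1 higher. The AAA+ proteins Ruvbl2 and Ruvbl1 were lower (-0.71 and -0.29), and Tgs1, which modifies the cap of snRNAs, was higher (0.18). Of 9 RNase P and MRP proteins, 6 were lower and 0 higher, with Pop7 at -0.51 and Pop4 at -0.17.

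Of 23 snRNP and SMN complex genes, 16 were lower and 1, Gemin8 (0.61), was higher. Snrpd3, a core Sm protein, had a log2 fold change of -0.68 and Snrpa, which binds U1, of -0.76. Of 17 genes for snRNA transcription and 3′ end formation, 12 were lower and 1 was higher, with the Integrator genes Ints6 and Cpsf3l at -0.30 and -0.49. Of 14 genes of the nuclear exosome and its partners, which trim the ends of such RNAs, 10 were lower and 2 higher, with Exosc10 at -0.36 and Mphosph6 at -0.42. Of 7 genes around the 7SK particle, 5 were lower and 1 higher, with Hexim1 at -0.47 and the 7SK capping enzyme Mepce at -0.61. Of 7 telomerase and shelterin genes, 3 were lower and 1 higher, with Tinf2 at -0.56 and Terf1 at 0.33. Beside the 32.8% of all genes called higher, 4 of 9 noncoding snoRNA hosts were higher and 1 lower, among them Snhg11 (0.62) and 2810026P18Rik (0.15). Beside the same background, 5 of 7 long nuclear RNAs were higher and 1 lower, with Neat1 at 0.43 and Xist at 0.04. Replication-dependent histone genes were lower in 57 of 60 tested and higher in 0, with a median of -0.98.

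Between the control libraries, the summed level of the 4 C/D core proteins was 155.8 CPM in low NT and 280.2 and 282.1 CPM in high NT, and that of the 4 H/ACA core proteins 44.5 CPM in low NT and 79.5 and 78.8 CPM in high NT. Fbl had 45.8 CPM in low NT and 34.5 and 35.1 CPM in high NT. Rpp40, an RNase P protein gene chosen after its values were seen, had 2.96 CPM in low NT and 132 and 136 CPM in high NT.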

How the data were processed

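The series holds 6 RNA-seq libraries, made with 1 stranded total RNA kit per the labels' protocols. A single table gave, per the file headers, the authors' FPKM (scaled by gene length and library size) and a count per gene and library. The deposited counts are whole numbers and were treated as estimated counts, because RSEM 1.2.12 stands beside DESeq2 and the build mm9 in the submitters' processing notes. The aligner and strand setting: not given in the sources used here. Reads of near-identical or overlapping genes are therefore uncertain. Per-sample columns left unused: 0.

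The test across genes was the quasi-likelihood test of edgeR 4.0.16 in R 4.3.3 (robust, TMM, filterByExpr by group, two-sided, Benjamini-Hochberg over all genes tested, threshold 0.05), fitted to the 4 high libraries and tested on simulated data. DESeq2 1.42.0 was an alternative. The low experiment and the control libraries have 1 library in a group and were described by ratios of CPM after TMM scaling of the 6 libraries (prior count 2), where the mean log2 CPM reached 0. Fold differences between controls given in times are relative to library totals. Intervals are exact 95% counting intervals, and a count of 0 allows 3 counts (0.0421 to 0.122 CPM). Both cover counting error alone, as PCR duplicates are not separate molecules.

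The length of a row is the median, over libraries with at least 20 counts, of the count over FPKM and library total. RNA lengths, hosts and sequences are from GENCODE vM21 on GRCm38, another build than the counts, so no coordinates are given. Snord116 matched no GENCODE transcript.

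The members, lists and tests were chosen with earlier results of these data known. Named were all members other than box C/D and H/ACA snoRNAs, the 15 most abundant, the 6 largest rises and falls in the high experiment among called members whose groups do not overlap, the 4 largest in the low one, the 2 genes of smallest p of each list, and hosts of those members. Snord15a, Snord33, Snord57, Snord8, Snord83b, Snora15, Snora31, Snora36b, Snora47, Snora52, Snora64, Snora78, Snord2, Snord11, Snord12, Snord53, Snord69, Snord99, Snora65, Snora70 and further list genes, as well as the split by row length, were chosen after their values were seen. Replicate numbers did not pair the libraries (correlation of the deviations -0.0411).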

Additional observations from a re-analysis of the deposited data

Results flagged for a closer look

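The siRNA effect differed between the low and the high experiment, by the interaction test, in 13 of 89 members tested. Each value is the log2 effect in the low experiment minus that in the high experiment, with 1 library per siRNA in the low experiment, and its edgeR adjusted p. It was 1.26 for Snord123 (adjusted p = 1.64e-09), 0.75 for Snord1a (adjusted p = 0.00109), 0.73 for Snord88a (adjusted p = 5.38e-08) and 0.32 for Snord22 (adjusted p = 0.00402). It was -0.68 for Snord100 (adjusted p = 2.27e-54), -0.64 for Snord15b (adjusted p = 8.18e-62), -0.60 for Snord34 (adjusted p = 1.51e-49) and -0.41 for Snord96a (adjusted p = 6.27e-39). With DESeq2 size factors, of these 8 Snord22 alone lost its call (0.22, adjusted p = 0.0505). The edgeR difference was 0.41 for Snord99 (adjusted p = 0.0234), and for rows with a count of 0 in 1 low library it was -6.66 for Snord33 (adjusted p = 0.0147), 6.66 for Snord2 (adjusted p = 0.0322), 6.46 for Snord57 (adjusted p = 0.0472) and 6.37 for Snora47 (adjusted p = 0.0479). Of the 13 rows, 5 are RNA-sized (Snord22, Snord33, Snord2, Snord57 and Snora47) and 8 are longer than their RNA.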

How the results depend on the processing

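For the high experiment (12 members higher, 39 lower, median -0.10), DESeq2 gave 3 and 21, the repeats summed with the experiment as a term 0 and 0 with a median of -0.174, and RNA-sized rows alone, a choice made after seeing the data, 4 and 25 with a median of -0.160. DESeq2 called 4175 of all 20242 genes higher and 4896 lower. Library size alone gave a median of -0.047. Leaving out 1 library gave 6 to 9 higher, 26 to 35 lower and medians of -0.140 to -0.090. With the replicate number as a block, 7 were higher and 38 lower, although the numbers do not pair the libraries. The calls of Rpph1 (adjusted p = 0.0559) and Rnu1b2 (adjusted p = 0.0643) ended. With the repeats summed, where the low experiment enters the effect, the sign turned for Snord100 (-0.285), Snord1a (0.084), Snord22 (0.071), Snord65 (-0.014) and Snord88a (0.142), none of them called. DESeq2 ended 14 of the 36 calls or values followed for single members, library size 5 (and added 3), and no filter 2, and turned no sign. The interaction had 4 members higher with DESeq2 size factors, and 6 to 8 higher and 5 lower without 1 library. The causes were not tested.

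In the low experiment (2 members at least 2-fold higher, median -0.12), the median was 0.237 by library size, -0.181 with DESeq2 size factors, -0.052 at a mean log2 CPM of 2 or more, where 1 was higher, and -0.324 for RNA-sized rows, where 0 were higher. In the controls (1 higher, 24 lower, median -2.34), the median was -2.960 by library size (0 higher), -2.284 with DESeq2 size factors, -2.301 with a prior count of 0.5, -2.171 at a mean log2 CPM of 2 or more (12 lower, from fewer members) and -5.897 for RNA-sized rows (0 higher, 14 lower). The share of counts without Rnu1b2 was 0.537% with Satb1 siRNA and 0.616% with NT siRNA in the high experiment. Without Snord15b, Snord34, Snord100 and Snord96a it was 2.01% and 1.93% there, and 0.0154% with Satb1 siRNA and 0.0105% with NT siRNA in the low experiment. Without the members in the scaling and the totals, 35 members reached the level filter in the controls in place of 33, and 26 were at least 2-fold lower. RNA-sized rows, and members with few counts in low NT, mostly entered through the high libraries, so their control values describe that choice too. The closely similar repeats and the single low libraries limit every comparison.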
